A study of Mus musculus with 24 samples.

Results

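Transcripts of 8 cathepsins and 2 cystatins were followed through 24 RNA-seq libraries of mouse brain microglia. The 10 genes, Ctsa, Ctsb, Ctsc, Ctsd, Ctsh, Ctsl, Ctss, Ctsz, Cst3 and Cst7, were named as lysosomal proteases with 2 of their inhibitors, and each matched a row by its symbol among the 49315 genes of the deposited count table. All 10 were among the 17579 genes that passed the filter on low counts. The libraries came from adult microglia sorted by flow cytometry for CD11b and an intermediate level of CD45. Cre+ mice carried the tamoxifen-activated recombinase creERT2 at the Cx3cr1 locus, which was meant to delete Dicer1, and Cre- mice are labelled as lacking it. Mice of both genotypes received tamoxifen. Each genotype had 3 libraries, described as biological replicates, in each of 4 states. Demyelination was 6 weeks of cuprizone, a copper chelator that kills oligodendrocytes, with tamoxifen at 4 to 5 weeks. Remyelination was 6 weeks of cuprizone and then 6 weeks of normal diet, either with tamoxifen on that same schedule (at the start) or with tamoxifen in week 5 of cuprizone (at the peak). Naive mice received tamoxifen without cuprizone. The labels do not say whether 4 to 5 weeks is an age, and they give neither the animals behind each library nor a sequencing batch.

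Cathepsins are proteases of endosomes and lysosomes that are made as inactive precursors and cut into active enzymes in acid compartments. Most are cysteine proteases, while cathepsin D is an aspartic and cathepsin A a serine protease. Cystatins are small proteins that block cysteine cathepsins. In microglia these enzymes degrade phagocytosed material such as myelin debris, and cathepsin S also trims the invariant chain of MHC class II. The microglial response to demyelination is known to include higher Ctsb, Ctsd, Ctsz and Cst7 transcripts. Dicer1 encodes the ribonuclease that cuts miRNA precursors, and mature miRNAs pair through their seed with sites in the 3′ UTRs of mRNAs.

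Libraries held 19476284 to 44526670 counts in naive, 21865238 to 32708382 in demyelination, 8873275 to 12560540 in start-tamoxifen remyelination and 8940567 to 12092415 in peak-tamoxifen remyelination samples. The lower depth of all remyelination libraries cannot be told apart from the state. The lowest count of a member in any library was 112, for Cst7, and the next lowest was 7188, for Ctsh. Levels are given as CPM, which are counts scaled to a common library size after TMM normalization. The Dicer1 gene total was called higher in naive Cre+ microglia, with 21.81, 22.06 and 24.31 CPM in Cre+ against 18.55, 11.1 and 12.07 CPM in Cre- libraries (log2 0.72 ± 0.16, edgeR adjusted p = 0.00151). It had 11.62, 15.71 and 17.49 CPM in demyelinated Cre+ against 23.07, 22.7 and 15.18 CPM in demyelinated Cre- libraries and was not called there. With tamoxifen at the start it had 32.41 to 35.21 CPM in Cre+ libraries, against 33.86 to 39.11 CPM in Cre- libraries, and at the peak 30.45 to 32.44 CPM in Cre+ libraries, against 30.62 to 34.08 CPM in Cre- libraries. Gene totals sum all exons, so they do not resolve a deleted segment and cannot check the genotype labels. Cx3cr1, the locus of the recombinase, was below every Cre- library of its state in all 12 Cre+ libraries, and far below the others in naive Cre+ replicate 1 (227.1 CPM) and in demyelination Cre+ replicates 1 and 3 (104.3 and 89.62 CPM). Microglial markers summed to between 37250 and 80800 CPM, and markers of T, NK and B cells to less than 8 CPM. The Cx3cr1 promoter is also active in other macrophages, so deletion is not limited to microglia by the driver.

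RefSeq promoters (GRCm38.p6, 250 bases before to 50 bases after an annotated start, 300 in all) were available for 8 of the 10 members, and Ctsa had 2. The E-box core CACGTG, a palindrome that reads the same on both strands and forms the centre of the motif bound by the lysosomal regulator TFEB, was present in 3 of these 9 promoters, against 7.15% of 32851 RefSeq promoters of the same length. The 3 are shown because they hold the motif, with CACGTG in capitals. The printed Ctsl and Ctsa windows lie wholly within the annotated genes (Ctsl at 64359337 to 64370890, Ctsa at 164832873 to 164841032). They thus belong to starts inside the gene, and the other Ctsa promoter held no core.

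Ctsd promoter, chr7:142387778-142388077, strand -: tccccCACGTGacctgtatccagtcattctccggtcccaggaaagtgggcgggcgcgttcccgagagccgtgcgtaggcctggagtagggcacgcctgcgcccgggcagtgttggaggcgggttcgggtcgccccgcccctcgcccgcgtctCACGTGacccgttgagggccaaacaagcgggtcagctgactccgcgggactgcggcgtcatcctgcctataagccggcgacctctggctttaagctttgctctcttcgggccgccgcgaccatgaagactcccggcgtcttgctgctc

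Ctsa promoter, chr2:164833523-164833822, strand +: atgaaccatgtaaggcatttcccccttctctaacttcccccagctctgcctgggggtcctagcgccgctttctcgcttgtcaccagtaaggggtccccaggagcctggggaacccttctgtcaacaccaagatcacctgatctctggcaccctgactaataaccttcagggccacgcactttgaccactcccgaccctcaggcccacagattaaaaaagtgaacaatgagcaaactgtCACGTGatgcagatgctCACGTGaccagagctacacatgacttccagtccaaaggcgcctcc

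Ctsl promoter, chr13:64370471-64370770, strand -: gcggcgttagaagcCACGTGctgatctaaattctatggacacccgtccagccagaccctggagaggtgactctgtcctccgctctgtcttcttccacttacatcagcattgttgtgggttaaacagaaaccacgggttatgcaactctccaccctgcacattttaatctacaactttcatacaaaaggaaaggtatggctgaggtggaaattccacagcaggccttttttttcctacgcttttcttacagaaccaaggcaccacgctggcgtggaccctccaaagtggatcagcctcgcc

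The longer palindrome TCACGTGA, which contains the core, occurred in the Ctsd and Ctsa promoters and in 0.974% of all promoters. Counted from the annotated start, the cores began at -245 and -98 in Ctsd, at -12 and 6 in Ctsa and at -236 in Ctsl. A match is a description of these letters only. Tfeb transcripts stood at 60.92 to 65.52 CPM in naive Cre+ and 51.25 to 64.8 CPM in naive Cre- libraries, and were not called between genotypes in any state (edgeR adjusted p of 0.0869 to 0.566).

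Because Dicer1 makes miRNAs, the longest annotated 3′ UTR of each member (GENCODE M21, GRCm38) was searched for seed matches of 13 miRNAs known from microglia and other myeloid cells. A match was 7 bases opposite miRNA bases 2 to 8, or 8 with an A after them. Ctsd, Ctsh, Ctss, Ctsz and Cst3, with 3′ UTRs of 218 to 660 bases, held no match. Ctsl matched 5 of the miRNAs in 4761 bases, Ctsc 4 in 2737, Ctsa 3 in 1798, Ctsb 2 in 3594 and Cst7 2 in 447 bases. The matches of Cst7 and Ctsb are printed because these members fell most in naive Cre+ microglia among those with a match, and those of Ctsl because it was the member that rose. All matches are given for Cst7 and Ctsb and only the 8-base matches for Ctsl, as 30-base stretches of the 3′ UTR, with the match in capitals, below the RefSeq sequence of the miRNA, with its seed in capitals.

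miR-29a-3p: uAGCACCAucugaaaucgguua

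Cst7 at base 221: aatgaattctcTGGTGCTAcacacctagat

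miR-125b-5p: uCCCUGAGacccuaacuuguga

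Cst7 at base 95: catctcagatcCTCAGGGcctgcttaccag

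let-7a-5p: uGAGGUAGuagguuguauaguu

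Ctsb at base 1423: caactccctccCTACCTCgcatagccagtg

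miR-146a-5p: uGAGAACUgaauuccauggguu

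Ctsb at base 465: tggcccagtgcAGTTCTCtggagaaagcta

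miR-26a-5p: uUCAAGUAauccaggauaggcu

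Ctsl at base 88: tcaaaccatggTACTTGAAtcattgaggat

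miR-21a-5p: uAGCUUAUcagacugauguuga

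Ctsl at base 4532: tttgctaagctATAAGCTAtaatcttaaga

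A 7-base match to miR-29a-3p was held by 6.03% of other genes' 3′ UTRs of similar length, and one to miR-125b-5p by 5.57%. For Ctsb the shares were 19.7% for let-7a-5p and 27.7% for miR-146a-5p, and for Ctsl 31.7% for miR-26a-5p and 23.7% for miR-21a-5p. The Ctsl matches not printed, all of 7 bases, were a further one to miR-21a-5p and those to miR-16-5p, miR-29a-3p and miR-223-3p, with shares of 56.3%, 40.5% and 26% for the last 3 miRNAs. Seed matches were present in Ctsl, which was higher in naive Cre+ microglia, and in Ctsb, Ctsc and Cst7, which were lower there. Ctsd, Ctsh and Ctss were also lower there and held no match. Of the members not called there, Ctsa held matches and Ctsz and Cst3 held none.

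Levels of different members were compared as CPM per kilobase of summed exons, so their order depends on that length. By mean CPM alone, Ctsb stood above Ctsz in all 8 groups. Ctsd then stood above Cst3 in demyelination, at 33030 against 19940 CPM in Cre+ and 24100 against 19250 CPM in Cre-. The ranks below are by CPM per kb. Cst3, the secreted inhibitor cystatin C, was the most abundant member in every group, with means of 13760 to 24470 CPM per kb, and ranked 1 or 2 of all genes in every group. Ctss and Ctsd followed, with Ctss ahead in both naive groups (5493 against 3980 CPM per kb in naive Cre+, 7441 against 6514 in naive Cre-) and Ctsd ahead by its mean elsewhere. Their ranges overlapped in demyelination Cre-, start-tamoxifen Cre- and peak-tamoxifen Cre+ libraries. Ctsz, a carboxypeptidase, was 4th in all 8 groups and Ctsb 5th. Ctsa, Ctsc, Ctsh and Ctsl formed a lower tier of 114.1 to 837.7 CPM per kb, in which neighbours often overlapped. Cst7, which encodes cystatin F, an inhibitor known to act on cathepsin C, came last in 6 groups, at 5.02 to 40.25 CPM per kb, but 6th in demyelination, at 2434 CPM per kb in Cre+ and 1004 CPM per kb in Cre- microglia. In demyelination Cre+ its range (1996 to 2837 CPM per kb) overlapped that of Ctsb (2396 to 2592 CPM per kb).

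**Figure D1:**
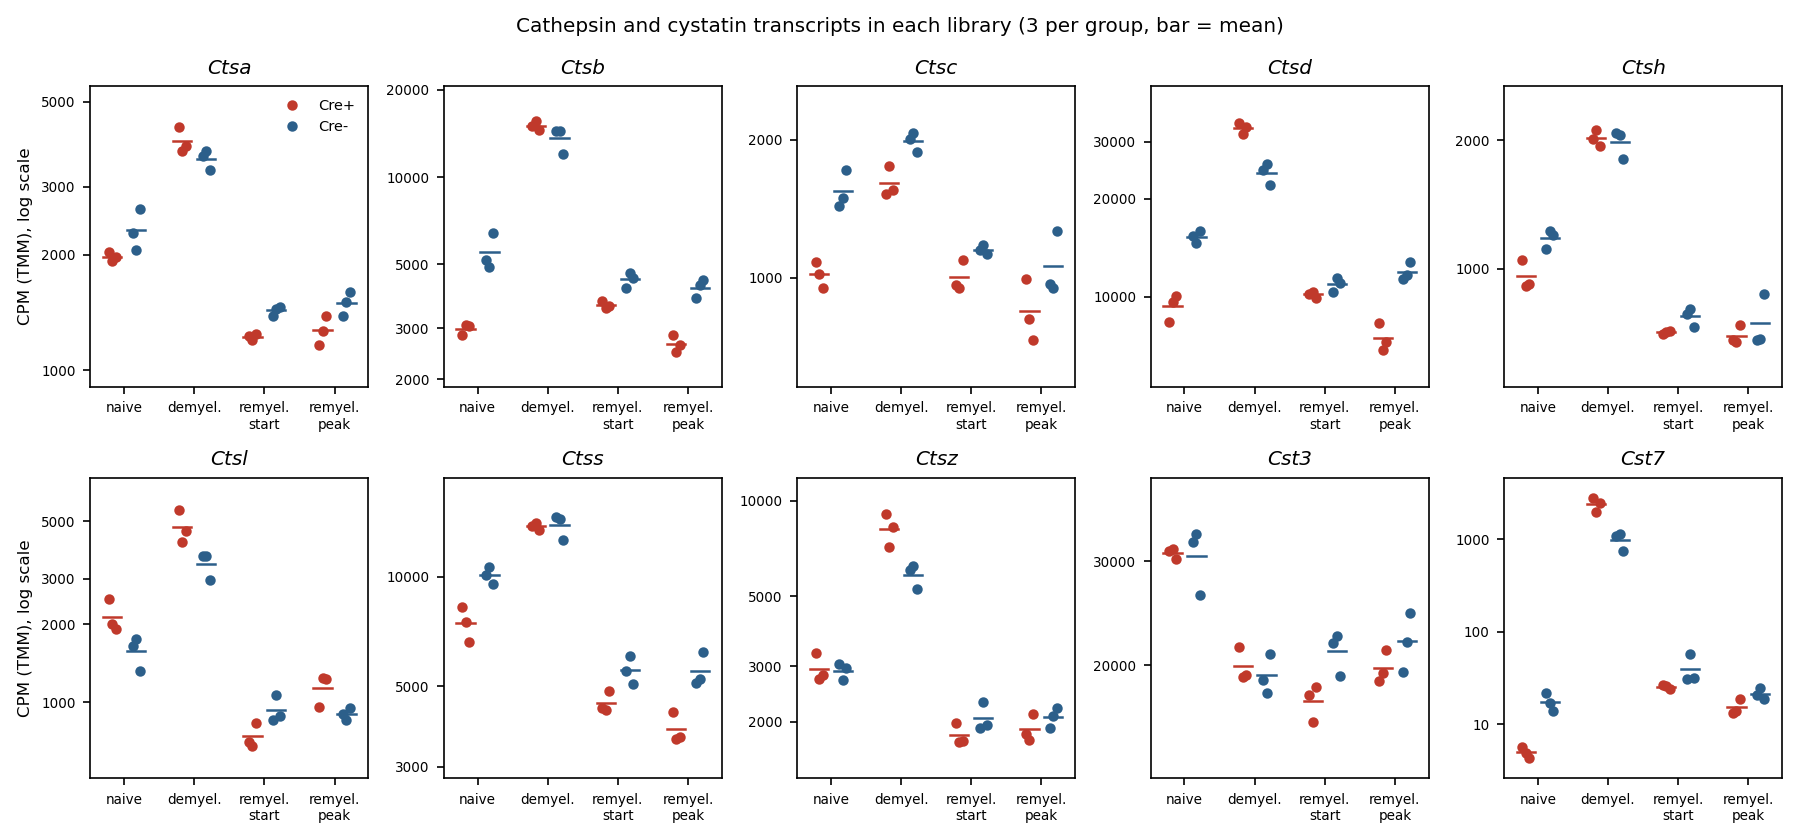
CPM (log scale, TMM-scaled) of each member in every library by state, with Cre+ (red) left of Cre- (blue), 3 points per group and a bar at the mean. The 8 cathepsins and Cst7 stand highest in demyelination, while Cst3 stands highest in naive microglia, and Cst7 spans 4.307 to 2797 CPM.

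In naive microglia, the endopeptidases Ctsb, Ctsd and Ctss, the exopeptidases Ctsc and Ctsh, and the inhibitor Cst7 were lower in Cre+ mice, and Ctsl was higher. This comparison sets Cre+ against Cre- microglia without injury. Dicer1 targeting, the recombinase and the lower Cx3cr1 of Cre+ libraries come together in every genotype comparison and cannot be told apart. Of the 10 members 6 fell and 1 rose (edgeR quasi-likelihood test, adjusted p below 0.05 over all genes), where 28.3% of all 17579 genes were called, 13.7% lower and 14.7% higher. The median log2 fold change was -0.37 over the members and -0.01 over all genes tested. In bulk libraries, fewer cells of a type and less RNA per cell cannot be told apart.

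Ctsb, the cathepsin B endopeptidase and dipeptidase (chromosome 14, 63122462 to 63145923), had 2842, 3083 and 3057 CPM in Cre+ and 5190, 4901 and 6417 CPM in Cre- libraries. All 3 Cre+ libraries lay well below all Cre- libraries. Its log2 fold change was -0.88 ± 0.10 (SE, n = 3 per group, edgeR adjusted p = 1.17e-06). Ctsd, the aspartic endopeptidase (chromosome 7, 142375911 to 142388038), stood at 8357, 9626 and 10090 CPM in Cre+ against 15330, 14670 and 15940 CPM in Cre- libraries. The groups did not overlap, and the log2 fold change was -0.71 ± 0.09 (edgeR adjusted p = 4.43e-06). Cst7 (chromosome 2, 150570415 to 150578944) had 5.71, 4.833 and 4.307 CPM in Cre+ and 21.63, 17.04 and 13.79 CPM in Cre- libraries. Even the highest Cre+ library lay below the lowest Cre- library, with a log2 fold change of -1.82 ± 0.25 (edgeR adjusted p = 2.63e-05).

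Ctsc, the dipeptidyl peptidase that activates granule serine proteases, averaged 1017 ± 65 CPM in Cre+ and 1545 ± 151 CPM in Cre- libraries (SD, n = 3 each) and fell by 0.60 on the log2 scale (edgeR adjusted p = 0.000307). Ctss, the endopeptidase of invariant chain processing, averaged 7460 ± 819 CPM in Cre+ and 10110 ± 553 CPM in Cre- libraries and fell by 0.44 (edgeR adjusted p = 0.00221). The aminopeptidase Ctsh fell by a smaller amount, to 959.5 ± 75.6 CPM in Cre+ against 1178 ± 60.3 CPM in Cre- libraries (log2 fold change -0.30 ± 0.10, edgeR adjusted p = 0.0202). Without naive Cre+ replicate 2 or 3, or without naive Cre- replicate 2, Ctsh missed the threshold (adjusted p of 0.0894, 0.0769 and 0.0811).

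Ctsl, the endopeptidase cathepsin L, went the other way in the same libraries. It had 2500, 1999 and 1920 CPM in Cre+ and 1647, 1760 and 1324 CPM in Cre- libraries. The groups did not overlap and the log2 fold change was 0.44 ± 0.14 (edgeR adjusted p = 0.0161). Ctsl missed the threshold without naive Cre+ replicate 1 (0.31, adjusted p = 0.126), which had very low Cx3cr1, without naive Cre- replicate 3 (0.33, adjusted p = 0.0993) and with GC content and length corrected (0.30, adjusted p = 0.12). Ctsa, the carboxypeptidase that protects lysosomal neuraminidase and beta-galactosidase, was not called, at 1978 ± 54.3 CPM in Cre+ and 2319 ± 288 CPM in Cre- libraries (log2 -0.23 ± 0.09, edgeR adjusted p = 0.0677). It was called lower with RLE size factors (adjusted p = 0.0469), with DESeq2 (0.0189), with GC content and length corrected (0.00748) and without naive Cre- replicate 2 (0.0308). Ctsz and Cst3 were not called either, with log2 fold changes of 0.02 (95% interval -0.21 to 0.25) and 0.02 (-0.20 to 0.23).

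The direction of Cst7, Ctsb, Ctsc, Ctsd and Ctss and their calls held in every alternative tried in naive microglia. Astrocyte markers moved with this comparison: their summed level was 334.1 to 379.4 CPM in Cre+ libraries, against 493 to 651.9 CPM in Cre- libraries, with 3 of 8 markers lower and none at 0. Microglial markers also summed lower, to between 66680 and 67270 CPM in Cre+ against 75850 to 80800 CPM in Cre- libraries, with 2 of 10 called lower. Endothelial and mural markers summed to 25.6 to 36.88 CPM in Cre+ libraries, against 37.16 to 51.75 CPM in Cre- libraries, with 1 of 6 lower. The part of these markers in the results was not tested.

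**Figure D2:**
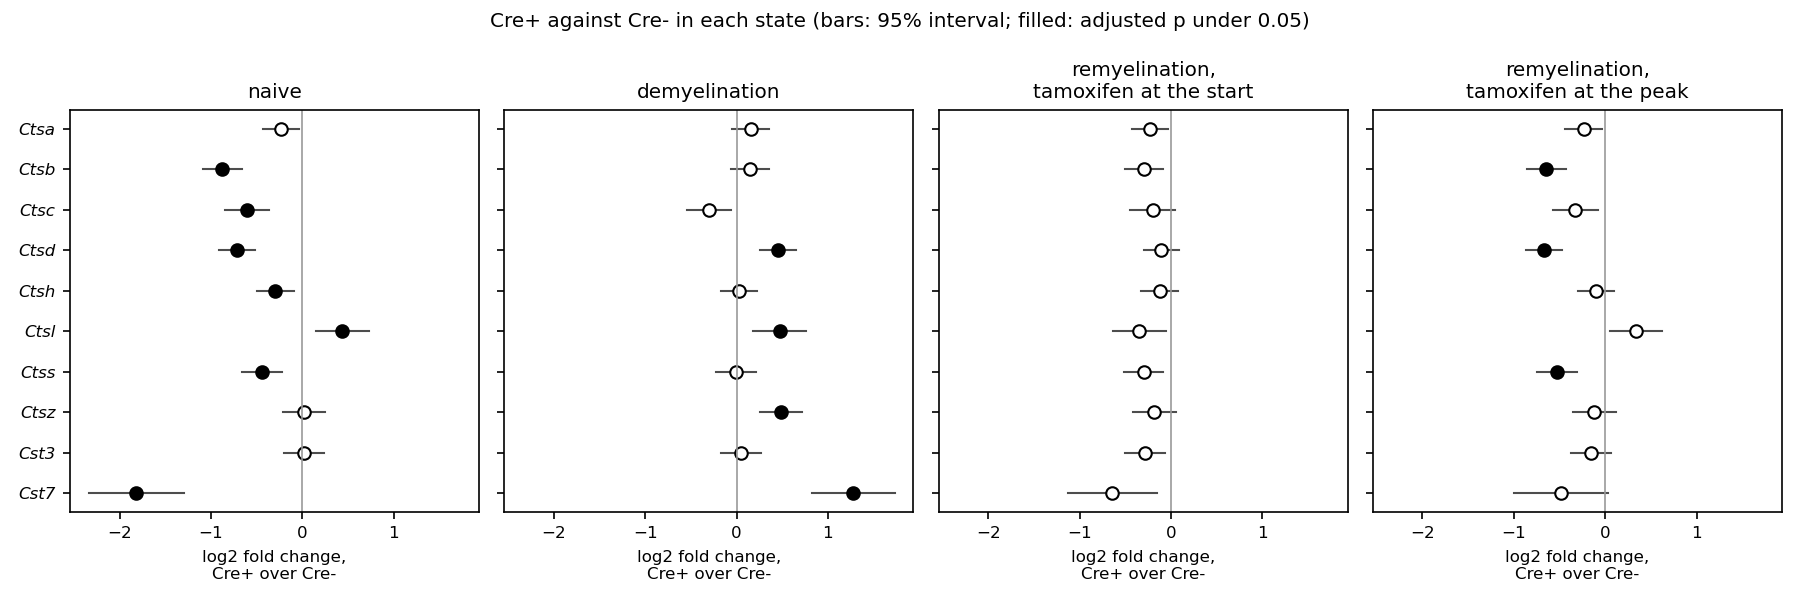
Log2 fold change of each member, Cre+ over Cre-, in the 4 states, with 95% intervals and filled circles for an edgeR adjusted p below 0.05. In naive microglia 7 members pass the threshold, in demyelination 4, all higher, in start-tamoxifen remyelination none, and in peak-tamoxifen remyelination 3, all lower.

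Demyelination was accompanied by higher transcripts of all 8 cathepsins and of Cst7, and lower Cst3, in both genotypes. In each genotype 9 members rose and 1 fell, where 52.2% of all genes were called in Cre+ (26.3% higher, 25.9% lower) and 35.9% in Cre- (19.7% higher, 16.2% lower). Cst7 had 2797, 1968 and 2434 CPM in demyelinated Cre+ against 5.71, 4.833 and 4.307 CPM in naive Cre+ libraries, and 1093, 1136 and 742.6 CPM in demyelinated Cre- against 21.63, 17.04 and 13.79 CPM in naive Cre- libraries. Demyelinated and naive libraries were far apart in both genotypes. The log2 fold change of Cst7 was 8.93 ± 0.31 in Cre+ (edgeR adjusted p = 8.73e-15) and 5.83 ± 0.26 in Cre- (edgeR adjusted p = 1.42e-12).

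Among the cathepsins, Ctsb rose most in Cre+ mice, to 15060 ± 596 CPM in demyelination against 2994 ± 132 CPM in naive libraries (log2 2.33 ± 0.11, edgeR adjusted p = 1.35e-15). In Cre- mice it reached 13610 ± 1380 CPM in demyelination against 5502 ± 805 CPM in naive libraries (log2 1.31 ± 0.10, edgeR adjusted p = 1.3e-10). Ctsd rose by 1.82 in Cre+ and by 0.65 in Cre- on the log2 scale, and Ctsz by 1.48 in Cre+ and 1.01 in Cre-. Ctsl rose by almost the same amount in each genotype, by 1.15 in Cre+ and 1.12 in Cre-. Ctsa rose by 1.00 in Cre+ and 0.61 in Cre-, Ctsh by 1.07 in Cre+ and 0.75 in Cre-, and Ctss by 0.89 in Cre+ and 0.46 in Cre-. Ctsc rose least, by 0.66 in Cre+ (edgeR adjusted p = 2.28e-05) and 0.36 in Cre- (edgeR adjusted p = 0.0141). The Cre- value of Ctsc missed the threshold without naive Cre- replicate 1 or 2 or demyelination Cre- replicate 2 (adjusted p of 0.07, 0.0519 and 0.0619).

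Cst3 was the member that fell. Its level was 21480, 19090 and 19250 CPM in demyelinated Cre+ and 31240, 31480 and 30220 CPM in naive Cre+ libraries, without overlap. The fall was 0.64 in Cre+ and 0.67 in Cre- microglia on the log2 scale (edgeR adjusted p of 1.04e-05 and 1.03e-05), so cystatin C and cystatin F transcripts changed in opposite directions in both genotypes. Markers of other cells moved with demyelination. Monocyte markers summed to 466.4 to 770.5 CPM in demyelinated Cre+ against 23.91 to 78.61 CPM in naive Cre+ libraries (5 of 7 higher), and to 215.2 to 346.4 CPM in demyelinated Cre- against 37.82 to 82.15 CPM in naive Cre- libraries (6 of 7 higher). Neutrophil markers summed to 1332 to 1679 CPM in demyelinated Cre+ against 128.9 to 510.2 CPM in naive Cre+ libraries (4 of 8 higher), and to 208.6 to 902.7 CPM in demyelinated Cre- against 164.3 to 491.6 CPM in naive Cre- libraries (2 of 8 higher). Microglial markers were lower in demyelination for 7 of 10 in Cre+ and 9 of 10 in Cre-, at 41560 to 49750 CPM in demyelination against 66680 to 80800 CPM in naive libraries. Of 8 border-associated macrophage markers 7 were higher and 1 lower in each genotype, with sums of 271.4 to 304.7 CPM in demyelinated Cre+ against 339.7 to 398.4 CPM in naive Cre+ libraries, and 337.1 to 438 CPM in demyelinated Cre- against 294.2 to 356.3 CPM in naive Cre- libraries. Endothelial and mural sums were 99.76 to 105 CPM in demyelinated Cre+ against 25.6 to 36.88 CPM in naive Cre+ libraries, and 77.99 to 97.57 CPM in demyelinated Cre- against 37.16 to 51.75 CPM in naive Cre- libraries, with 1 of 6 higher and 1 lower in each genotype. Markers of T, NK and B cells summed to 6.858 to 7.181 CPM in demyelinated Cre+ against 0.1404 to 0.9665 CPM in naive Cre+ libraries, with 2 of the 3 tested markers higher in each genotype. Their part in the results was not tested.

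**Figure D3:**
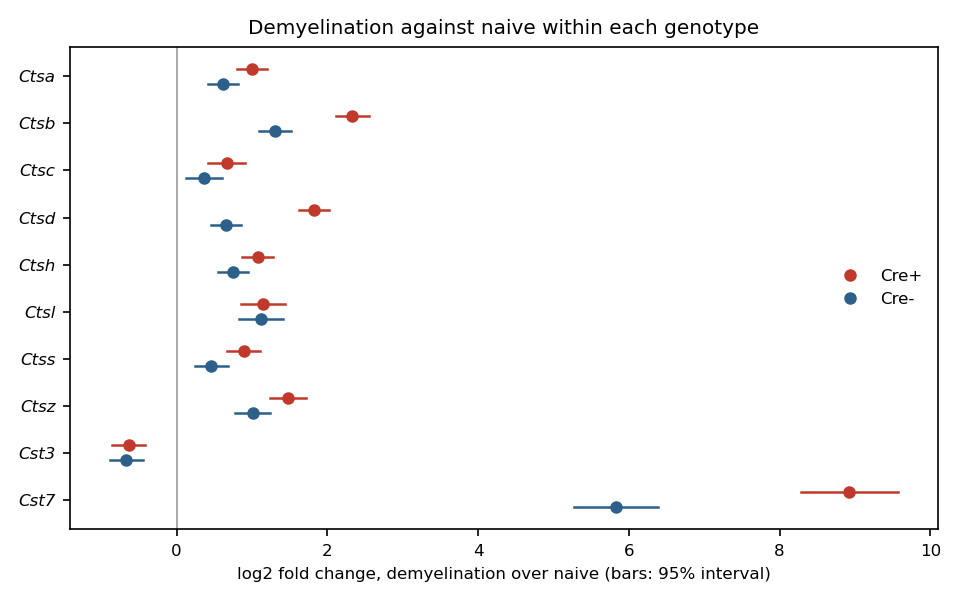
Log2 fold change of each member, demyelination over naive, in Cre+ (red, upper point) and Cre- (blue, lower point) microglia with 95% intervals. Cst7 lies farthest right in both genotypes, at 8.93 in Cre+ and 5.83 in Cre-, Cst3 alone lies left of zero, and the genotypes are farthest apart for Cst7, Ctsd and Ctsb.

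Within demyelination, Cst7, Ctsd, Ctsz and Ctsl were higher in Cre+ than in Cre- microglia. These 4 of 10 members were called higher and none lower, where 9.17% of all genes were called, 5.69% higher and 3.48% lower. Cst7 stood at 2797, 1968 and 2434 CPM in Cre+ and 1093, 1136 and 742.6 CPM in Cre- libraries, a log2 fold change of 1.28 ± 0.22 (edgeR adjusted p = 0.00144). Every Cre+ library exceeded every Cre- library. Ctsd had 34200, 31570 and 33330 CPM in Cre+ and 24560, 25680 and 22070 CPM in Cre- libraries (log2 0.46 ± 0.09, edgeR adjusted p = 0.00315), again without overlap.

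Ctsz had 9100, 7167 and 8274 CPM in Cre+ and 6050, 6231 and 5253 CPM in Cre- libraries (log2 0.48 ± 0.11, edgeR adjusted p = 0.00663). Ctsl had 5524, 4161 and 4581 CPM in Cre+ and 3674, 3657 and 2960 CPM in Cre- libraries (log2 0.47 ± 0.14, edgeR adjusted p = 0.0288). For all 4 genes the highest Cre+ library was replicate 1, which had very low Cx3cr1. Ctsb, Ctss, Ctsa, Ctsh and Cst3 were not called, with log2 fold changes between -0.01 and 0.15. Ctsc had a value of -0.30 ± 0.11 (edgeR adjusted p = 0.1), and was called lower with GC content and length corrected (-0.32, adjusted p = 0.0353) and with only the compared groups fitted (-0.31, adjusted p = 0.042).

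These 4 calls depended to unequal degrees on which libraries entered. Cst7 and Ctsd kept their calls with any single library left out (edgeR adjusted p of at most 0.0144 and 0.0255). Without demyelination Cre+ replicate 1, Ctsz (0.41, adjusted p = 0.0672) and Ctsl (0.35, adjusted p = 0.217) missed the threshold, and Ctsl also did without demyelination Cre+ replicate 3, Cre- replicate 2 or Cre- replicate 3 (adjusted p of 0.0572, 0.051 and 0.148). With all 3 Cre+ libraries of low Cx3cr1 left out, a lone demyelination Cre+ library remained, whose spread is then taken from the other groups, and none of the 10 was called. The values were then 1.03 for Cst7 (adjusted p = 0.244), 0.43 for Ctsd (0.187), 0.34 for Ctsz (0.561) and 0.32 for Ctsl (0.737). Neutrophil markers summed to 1332 to 1679 CPM in Cre+ libraries, against 208.6 to 902.7 CPM in Cre- libraries, with none of 8 markers called and none at 0. Monocyte markers summed to 466.4 to 770.5 CPM in Cre+ libraries, against 215.2 to 346.4 CPM in Cre- libraries, led by Fn1, which was higher, while Ccr2 and Itga4 were lower, and none of 7 was at 0. Border-associated macrophage markers summed to 271.4 to 304.7 CPM in Cre+ libraries, against 337.1 to 438 CPM in Cre- libraries, with 2 of 8 lower. Their part in the cathepsin values was not tested.

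The genotype effect itself differed between demyelination and naive microglia for 6 members, all with a more positive effect in demyelination, where 15.8% of all genes were called, 7.97% in that direction and 7.78% in the other. For Cst7 the difference was 3.09 ± 0.33 on the log2 scale (edgeR adjusted p = 1.13e-05), the effect being 1.28 in demyelination and -1.82 in naive microglia. For Ctsd it was 1.17 ± 0.13 (edgeR adjusted p = 5.97e-06) and for Ctsb 1.02 ± 0.14 (edgeR adjusted p = 6.61e-05). Ctsb thus stood lower in naive Cre+ microglia and within 0.15 of Cre- on the log2 scale in demyelination. Those 3 differences were called in every alternative.

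Ctsz (0.46, edgeR adjusted p = 0.0411), Ctss (0.43, edgeR adjusted p = 0.0438) and Ctsa (0.38, edgeR adjusted p = 0.0492) were close to the threshold. Of the 12 fits that each left out a library, Ctsz missed it in 8, Ctss in 9 and Ctsa in 10. Ctsz kept its call without naive Cre+ replicate 1, naive Cre- replicate 2, demyelination Cre+ replicate 2 or demyelination Cre- replicate 2. Ctss kept it without naive Cre+ replicate 1, naive Cre- replicate 3 or demyelination Cre- replicate 1, and Ctsa without naive Cre- replicate 2 or demyelination Cre+ replicate 2. With GC content and length corrected, the values were 0.34 for Ctsz (adjusted p = 0.0879) and 0.18 for Ctss (adjusted p = 0.363). The difference was not called for Ctsl, whose genotype effect was 0.47 in demyelination and 0.44 in naive microglia, nor for Ctsc, Ctsh and Cst3.

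**Figure D4:**
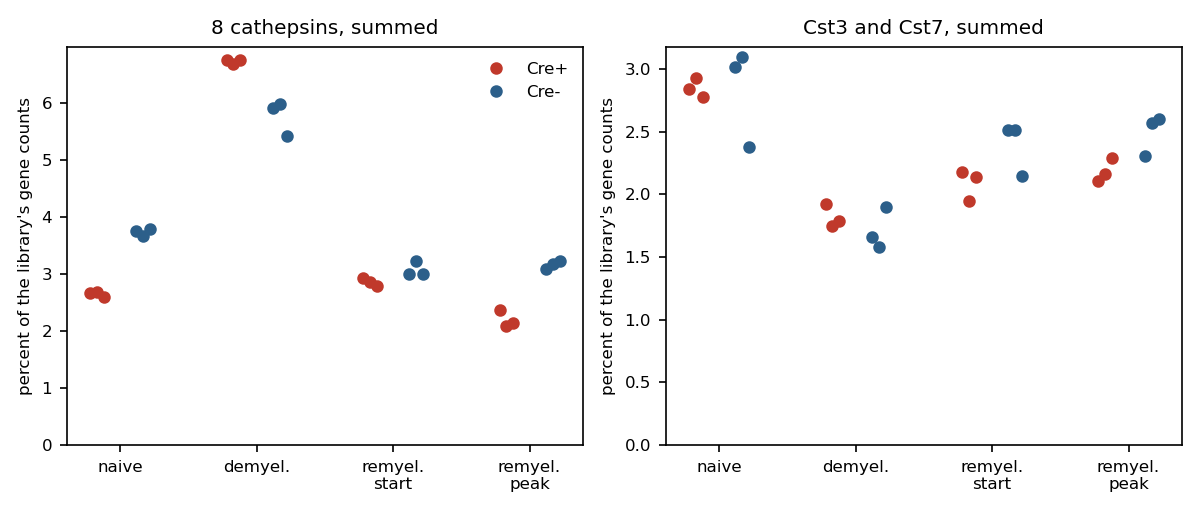
Percent of each library's gene counts from the 8 cathepsins together (left) and from Cst3 and Cst7 together (right), with Cre+ (red) left of Cre- (blue) in each state and 1 point per library. Cathepsins take 2.6 to 2.68% in naive Cre+ against 3.66 to 3.78% in naive Cre- libraries, and 6.68 to 6.74% in demyelinated Cre+ against 5.42 to 5.97% in demyelinated Cre- libraries.

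As a share of all gene counts, the 8 cathepsins together were lower in Cre+ in naive microglia and higher in Cre+ in demyelination, without overlap in either state. Their share was 2.78 to 2.92% in Cre+ and 2.99 to 3.23% in Cre- libraries with tamoxifen at the start, and 2.08 to 2.36% in Cre+ and 3.08 to 3.22% in Cre- libraries with tamoxifen at the peak. The 2 cystatins took 2.78 to 2.93% in naive Cre+ and 2.38 to 3.1% in naive Cre- libraries, nearly all of it Cst3 in these naive libraries. They took 1.75 to 1.92% in demyelinated Cre+ and 1.58 to 1.9% in demyelinated Cre- libraries. In demyelinated Cre+ libraries Cst7 averaged 2400 CPM, beside 19940 CPM for Cst3. With tamoxifen at the start the cystatins took 1.95 to 2.18% in Cre+ and 2.15 to 2.51% in Cre- libraries. With tamoxifen at the peak they took 2.11 to 2.29% in Cre+ and 2.31 to 2.6% in Cre- libraries. Their share was below that of the cathepsins, without overlap, in every group except naive Cre+ and peak-tamoxifen Cre+.

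After the return to normal diet with tamoxifen at the start, 9 members were lower than in demyelination in each genotype, where 63.3% of all genes were called in Cre+ (32.5% higher, 30.8% lower) and 54.7% in Cre- (26.3% higher, 28.3% lower). This comparison uses the same demyelination libraries as the one before, so the values are not independent of it. Cst7 stood at 26.2, 26.11 and 23.92 CPM in remyelinating Cre+ against 1968 to 2797 CPM in demyelinated Cre+ libraries, a log2 fold change of -6.56 ± 0.27 (edgeR adjusted p = 1.24e-13). In Cre- microglia it stood at 30.72, 56.89 and 31.46 CPM against 742.6 to 1136 CPM (log2 -4.64 ± 0.25, edgeR adjusted p = 2.07e-11). Ctsl fell most among the cathepsins, by 2.68 in Cre+ and 1.87 in Cre-, followed by Ctsz in Cre+ (2.17) and Ctsb in Cre- (1.62). Cst3 was not called, with -0.19 ± 0.10 in Cre+ (edgeR adjusted p = 0.103) and 0.14 ± 0.10 in Cre- (edgeR adjusted p = 0.274). Border-associated macrophage markers moved with this comparison, at 880.8 to 1299 CPM in remyelinating Cre+ against 271.4 to 304.7 CPM in demyelinated Cre+ libraries (7 of 8 higher), and 876.3 to 1090 CPM in remyelinating Cre- against 337.1 to 438 CPM in demyelinated Cre- libraries (6 of 8 higher). Astrocyte markers were higher for 6 of 8 in each genotype, endothelial and mural markers for 4 of 6 in Cre+ and 3 of 6 in Cre-, and oligodendrocyte markers for 2 of 6 tested in Cre+ and 5 of 6 in Cre-. Monocyte sums were 138.3 to 229.6 CPM in remyelinating Cre+ against 466.4 to 770.5 CPM in demyelinated Cre+ libraries (2 of 7 higher, 1 lower). In Cre- they were 170 to 443.9 CPM against 215.2 to 346.4 CPM (1 of 7 lower). Neutrophil sums were 365.3 to 1066 CPM against 1332 to 1679 CPM in Cre+, with none of 8 markers called. In Cre- they were 526.4 to 4013 CPM against 208.6 to 902.7 CPM, again with none called. T, NK and B cell sums were 0.9165 to 1.968 CPM against 6.858 to 7.181 CPM in Cre+. In Cre- they were 1.865 to 3.523 CPM against 5.317 to 7.807 CPM, with 1 of 3 tested markers lower in each genotype. Of 10 microglial markers 3 were higher and 4 lower in Cre+, and 3 higher and 3 lower in Cre-. The part of these markers in the results was not tested.

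Against naive microglia, the remyelination libraries with tamoxifen at the start held higher Cst7 and lower Ctsa, Ctsh, Ctsl, Ctss, Ctsz and Cst3 in both genotypes. In Cre+ 2 members were higher and 6 lower, where 57.9% of genes were called (28.6% higher, 29.2% lower). In Cre- 1 was higher and 9 lower, where 56.2% were called (28.8% higher, 27.4% lower). Cst7 had log2 fold changes of 2.37 ± 0.25 in Cre+ (edgeR adjusted p = 1.87e-07) and 1.19 ± 0.23 in Cre- (edgeR adjusted p = 0.000202). Its transcripts thus stood above the naive level with tamoxifen at the start. With tamoxifen at the peak, Cst7 had 18.69 to 24.41 CPM in Cre- libraries, which overlapped naive Cre- libraries at 13.79 to 21.63 CPM. Peak-tamoxifen Cre+ libraries had 13.14 to 18.71 CPM, against 4.307 to 5.71 CPM in naive Cre+ libraries. Peak tamoxifen against naive was not tested. With tamoxifen at the start, Ctsl went furthest below naive in Cre+. It had 740.5 ± 83 CPM in remyelination against 2140 ± 315 CPM in naive libraries (log2 -1.53 ± 0.14, edgeR adjusted p = 2.06e-09). Ctss was lower by 0.73 in Cre+ and 0.87 in Cre-, and Cst3 by 0.83 in Cre+ and 0.53 in Cre-.

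Ctsb, Ctsc and Ctsd had other values by genotype in this comparison. Ctsb was called higher in Cre+ (0.27, edgeR adjusted p = 0.0232) and lower in Cre- (-0.31, edgeR adjusted p = 0.00951). The Cre+ call was lost without naive Cre+ replicate 1 or any of the 3 remyelination Cre+ libraries (adjusted p of 0.0529 to 0.103), and the Cre- call without naive Cre- replicate 3 (adjusted p = 0.137). Ctsd was 0.12 in Cre+ (edgeR adjusted p = 0.269) and -0.49 in Cre- (edgeR adjusted p = 8.1e-05). Ctsc was -0.02 in Cre+ (edgeR adjusted p = 0.88) and -0.42 in Cre- (edgeR adjusted p = 0.0027), and both Ctsc values moved when GC content and length were corrected, to 0.37 in Cre+ (adjusted p = 0.00291) and -0.06 in Cre- (adjusted p = 0.623). Whether these changes from naive differed between genotypes was not tested, so a call in 1 genotype only does not show a genotype difference. Astrocyte markers were 642.1 to 674.8 CPM in remyelinating Cre+ and 532.5 to 948.5 CPM in remyelinating Cre- libraries, against 334.1 to 379.4 CPM in naive Cre+ and 493 to 651.9 CPM in naive Cre- libraries. Border-associated macrophage markers were 880.8 to 1299 CPM in remyelinating Cre+ and 876.3 to 1090 CPM in remyelinating Cre- libraries, against 339.7 to 398.4 CPM in naive Cre+ and 294.2 to 356.3 CPM in naive Cre- libraries, with 8 of 8 higher in each genotype. Microglial markers were lower for 7 of 10 in Cre+ and 8 of 10 in Cre-, with sums of 37250 to 42580 CPM in remyelinating Cre+ against 66680 to 67270 CPM in naive Cre+ libraries, and of 40900 to 46050 CPM in remyelinating Cre- against 75850 to 80800 CPM in naive Cre- libraries. Neutrophil markers summed to 365.3 to 1066 CPM in remyelinating Cre+ against 128.9 to 510.2 CPM in naive Cre+ libraries (1 of 8 higher), and to 526.4 to 4013 CPM in remyelinating Cre- against 164.3 to 491.6 CPM in naive Cre- libraries (7 of 8 higher). Monocyte markers were higher for 5 of 7 in Cre+ and 6 of 7 in Cre-, endothelial and mural markers for 5 of 6 in each genotype, and astrocyte markers for 7 of 8 in Cre+ and 2 of 8 in Cre-. Their part in the results was not tested.

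Between genotypes within start-tamoxifen remyelination, no member was called by edgeR or by DESeq2, where 0.0341% of all genes (6 genes) were called by edgeR. All 10 log2 fold changes were below 0, between -0.64 and -0.10, with a median of -0.25, against -0.04 over all genes tested. Cst7 had 26.2, 26.11 and 23.92 CPM in Cre+ and 30.72, 56.89 and 31.46 CPM in Cre- libraries (log2 -0.64, 95% interval -1.13 to -0.16, edgeR adjusted p = 0.358). The value of Ctsb was 3717, 3528 and 3578 CPM in Cre+ and 4150, 4661 and 4476 CPM in Cre- libraries (log2 -0.30, 95% interval -0.51 to -0.09, edgeR adjusted p = 0.319). Neither Cst7 nor Ctsb passed the adjustment over all genes. A value of similar size was called in naive microglia, for Ctsh (log2 -0.30, edgeR adjusted p = 0.0202), where 28.3% of all genes were called. The missing calls therefore do not show that the members were equal between genotypes.

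With tamoxifen at the peak, Ctsb, Ctsd and Ctss were lower in Cre+ microglia. These were 3 of 10 members, with none higher, where 11.0% of all genes were called, 6.99% higher and 4.02% lower. Ctsd had 8336, 6877 and 7249 CPM in Cre+ and 11350, 11650 and 12840 CPM in Cre- libraries (log2 -0.67 ± 0.09, edgeR adjusted p = 3.12e-05). Ctsb had 2853, 2481 and 2632 CPM in Cre+ and 3813, 4222 and 4421 CPM in Cre- libraries (log2 -0.65 ± 0.10, edgeR adjusted p = 0.000118). Ctss had 4234, 3583 and 3623 CPM in Cre+ and 5102, 5219 and 6196 CPM in Cre- libraries (log2 -0.53 ± 0.10, edgeR adjusted p = 0.00117). In none of the 3 genes did the groups overlap, and each kept its call in every alternative tried.

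The other members were not called with tamoxifen at the peak. Ctsl was again on the other side, at 958, 1242 and 1227 CPM in Cre+ and 900.4, 857.7 and 954.1 CPM in Cre- libraries (log2 0.34 ± 0.14, edgeR adjusted p = 0.112), and every Cre+ library lay above the Cre- libraries. Ctsc was -0.33 (edgeR adjusted p = 0.0665), Ctsa -0.24 (edgeR adjusted p = 0.107) and Cst7 -0.48 ± 0.25 (edgeR adjusted p = 0.226), with 13.14 to 18.71 CPM in Cre+ libraries, against 18.69 to 24.41 CPM in Cre- libraries. Without a filter on low counts, Ctsc and Ctsl were called too, which makes 5 members. Ctsc was also called lower with DESeq2 (adjusted p = 0.0374) and, by edgeR, with GC content and length corrected (adjusted p = 0.0111). Without peak-tamoxifen Cre+ replicate 1, Ctsc was called lower and Ctsl higher (edgeR adjusted p of 0.0127 and 0.0389). Ctsa was called lower with GC content and length corrected (edgeR adjusted p = 0.0286). Astrocyte markers summed to 400.4 to 576.6 CPM in Cre+ libraries, against 722.5 to 1086 CPM in Cre- libraries, with 2 of 8 lower, and endothelial and mural markers to 26.14 to 43.09 CPM in Cre+ libraries, against 50.96 to 83.89 CPM in Cre- libraries, with 3 of 6 lower. A Cre+ library had a neutrophil marker sum of 5231 CPM, against 440.9 and 459.3 CPM in the other Cre+ libraries and 174.7 to 282.4 CPM in Cre- libraries, with 2 of 8 markers higher and Retnlg at 0 in 1 Cre- library. Monocyte markers summed to 95.9 to 659.3 CPM in Cre+ libraries, against 75.78 to 91.08 CPM in Cre- libraries, with 1 of 7 higher. Their part in the results was not tested.

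Genotype effects were compared for 2 more of the 6 pairs of states, and the other 3 pairs were not tested. Start-tamoxifen remyelination differed from demyelination for 4 members, all with a more negative effect in remyelination, where 3.74% of all genes were called, 2.94% in that direction and 0.796% in the other. They were Cst7 (-1.92 ± 0.31, edgeR adjusted p = 0.0066), Ctsl (-0.81 ± 0.19, edgeR adjusted p = 0.0202), Ctsz (-0.67 ± 0.16, edgeR adjusted p = 0.0193) and Ctsd (-0.56 ± 0.13, edgeR adjusted p = 0.0197). None of the 4 was called without the 3 Cre+ libraries of low Cx3cr1, where adjusted p was 0.104 to 0.342. Ctsl, Ctsz and Ctsd were also lost without demyelination Cre+ replicate 1, demyelination Cre- replicate 3, start-tamoxifen Cre+ replicate 2 or start-tamoxifen Cre- replicate 2, and Ctsl without start-tamoxifen Cre+ replicate 1.

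Peak tamoxifen differed from start tamoxifen for 2 members, where 3.77% of all genes were called, 2.87% with a more positive and 0.893% with a more negative effect at the peak. The effect on Ctsd was more negative at the peak, by -0.57 ± 0.13 (edgeR adjusted p = 0.0132), being -0.67 at the peak and -0.10 at the start. The effect on Ctsl was more positive at the peak, by 0.68 ± 0.19 (edgeR adjusted p = 0.0445), being 0.34 at the peak and -0.34 at the start. Ctsd kept its call in every alternative. Ctsl missed the threshold in 8 of 12 fits that each left out a library, and kept its call only without start-tamoxifen Cre+ replicate 3, start-tamoxifen Cre- replicate 1, peak-tamoxifen Cre+ replicate 1 or peak-tamoxifen Cre- replicate 3.

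Other members of the cathepsin family and of the inhibitors were counted from lists. Between genotypes, 14.7% of all genes were higher and 13.7% lower in naive, 5.69% higher and 3.48% lower in demyelinated, and 6.99% higher and 4.02% lower in peak-tamoxifen Cre+ microglia. Of 6 further cathepsins, 1 was higher and 2 lower in naive Cre+ microglia, 2 were higher in demyelinated Cre+ and 1 in peak-tamoxifen Cre+ microglia. Ctsf was called higher in all of these: it had 801.7, 672.6 and 767.3 CPM in naive Cre+ against 541.7, 487.5 and 598.3 CPM in naive Cre- libraries (log2 0.46 ± 0.12, edgeR adjusted p = 0.00536), with log2 fold changes of 0.52 in demyelination and 0.46 at the peak. Ctse and Ctso were lower in naive Cre+ microglia (-1.92 and -0.32). Ctsw, a cathepsin of cytotoxic lymphocytes, was higher in demyelinated Cre+ microglia, with 17.24, 5.518 and 11.93 CPM in Cre+ against 1.48, 1.993 and 1.797 CPM in Cre- libraries (log2 2.72 ± 0.36, edgeR adjusted p = 0.000101). Markers of T, NK and B cells summed to 6.858 to 7.181 CPM in the same Cre+ libraries, against 5.317 to 7.807 CPM in the Cre- libraries, and of the 3 that were tested 1 was lower and none higher in Cre+. The NK cell marker Klrb1c took the most of it, at 4.575 to 5.85 CPM in Cre+ libraries, against 2.885 to 3.987 CPM in Cre- libraries, while Cd3e was at 0 in 1 library of each genotype and Cd3d in 2 Cre+ libraries. Their part in the Ctsw value was not tested.

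Of 7 other inhibitors of cysteine proteases, 3 passed the filter on low counts. Cstb, the cytosolic inhibitor cystatin B, was lower in naive Cre+ (31.63 ± 1.64 CPM in Cre+ and 56.75 ± 4.05 CPM in Cre- libraries, log2 -0.84, edgeR adjusted p = 1.55e-05) and lower at the peak (-0.46, edgeR adjusted p = 0.025). Ctla2b, which resembles a cathepsin propeptide, was lower in naive Cre+ (-1.33) and higher in demyelinated Cre+ microglia (0.93). Reads of Ctla2a and Ctla2b, which are near-identical copies, may have been split between them, so their values are uncertain. All 3 inhibitors rose in demyelination in both genotypes, Cstb by 3.22 in Cre+ and 2.14 in Cre- on the log2 scale.

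Of 14 processing, sorting and lysosomal partners, 2 were higher and 6 lower in naive Cre+ microglia (all genes 14.7% and 13.7%), 1 was higher and 1 lower in demyelinated Cre+, none was called in start-tamoxifen Cre+ and 3 were lower in peak-tamoxifen Cre+ microglia (all genes 4.02%). The dipeptidyl peptidase gene Dpp7 was lower in naive Cre+ (-0.90) and at the peak (-0.86), as was Scpep1, a serine carboxypeptidase gene (-0.62 and -0.43). Lgmn, the asparaginyl protease that processes cathepsins, was lower in naive Cre+ only among the genotype comparisons called (4785 ± 63.9 CPM in Cre+ and 5885 ± 424 CPM in Cre- libraries, log2 -0.30, edgeR adjusted p = 0.0128). Of 17 genes for lysosomal membrane, acidification and transcription factors, 1 was higher and 2 lower in naive Cre+ microglia, a smaller share than the 28.3% called of all genes. In demyelinated Cre+ microglia 2 were higher (Npc2 and Atp6v0d1), and at the peak 2 were lower (Cd63 and Mcoln1). Cd63, a tetraspanin of late endosomes, had 172, 164.3 and 165.6 CPM in naive Cre+ and 501.3, 456.4 and 451.4 CPM in naive Cre- libraries (log2 -1.49 ± 0.12, edgeR adjusted p = 1.4e-08), and was lower at the peak (-1.08). The list median in naive microglia was -0.23 for partners and 0.09 for the membrane and acidification genes, beside -0.37 for the 10 members and -0.01 for all genes.

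Disease-associated microglia genes other than the members, such as Apoe, Lpl and Clec7a, were lower in naive Cre+ for 9 of 13 (all genes 13.7%) and at the peak for 4 of 13 (all genes 4.02%). In demyelination 1 of them (Apoe, -0.69) was lower and none higher, where 3.48% of all genes were lower. Of the invariant chain and 5 class II genes, the substrate pathway of Ctss, 4 of 6 were lower in naive Cre+ (all genes 13.7%) and 4 of 6 in demyelinated Cre+ microglia (all genes 3.48%). The invariant chain gene Cd74 had 1107, 945.3 and 925 CPM in demyelinated Cre+ against 2502, 2541 and 2311 CPM in demyelinated Cre- libraries (log2 -1.30 ± 0.21, edgeR adjusted p = 0.000984). Ctss in the same libraries was within 0.01 on the log2 scale between genotypes, with a 95% interval of -0.23 to 0.21.

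Across the 24 libraries the members shared much of their pattern, which the 4 states set: libraries of a state share treatment and depth, so these correlations are descriptions. The highest Pearson r between members was 0.981, for Ctsb with Ctsd, followed by 0.98, for Ctsa with Ctsh. After removal of group means r was 0.718 for Ctsb with Ctsd and 0.412 for Ctsa with Ctsh. Cst3 stood apart, with r between -0.465 and 0.215 to the other members. Among all genes tested, the genes most like Ctsb were Scpep1 (r = 0.992), Cd63 and Ccl6, and the gene most like Ctsd was Scpep1 as well (r = 0.982). Closest to Cst7 were Mif (r = 0.992), Socs2 and Il2rg. Ctsz was most like Npc2 (r = 0.992), Ctsa most like Fuca1 (0.991), Ctsh most like Psmb6 (0.994), Ctss most like Cd300c2 (0.99), Ctsl most like Srgn (0.991) and Ctsc most like Prr13 (0.973). The best r for Cst3 was 0.92, with Mgll.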

How the data were processed

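RNA of sorted microglia was sequenced in 24 libraries, 3 in each of 8 groups, which were formed from the sample labels. The deposited values were whole-number counts per gene, not normalized. Per the submitters' processing notes, Trimmomatic 0.36, STAR 2.5.2b, featureCounts of Subread 1.5.2 and DESeq2 were used with the GRCm38 build. How strand and multimapping reads were handled is not given in the sources used, and reads of near-identical copies or of overlapping genes may have been split or lost. Ensembl gene identifiers were matched to symbols for 49056 of 49315 genes, and 259 had no match.

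From the counts as deposited, genes were filtered with filterByExpr over the 8 groups, which left 17579, and scaled by TMM. Fits were made with edgeR 4.0.16 and limma 3.58.1 in R 4.3.3: a robust quasi-likelihood fit with 1 coefficient per group and 16 residual degrees of freedom shared by all 24 libraries. Genotype, state and difference-of-effect contrasts, 13 in all, were tested two-sided, with Benjamini-Hochberg adjustment over all tested genes and a threshold of 0.05. Intervals are 95% intervals of the log2 fold change. The procedure was tested on simulated data.

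The members and the gene lists were chosen with earlier results of these data known. All members were named in every comparison, and up to 4 genes of each other list by the smallest p in each genotype comparison. Lgmn, named outside that rule, was chosen after its values were seen. Alternatives were RLE size factors, no filter (genes with at least 1 count), DESeq2 1.42.0, the compared groups alone, a replicate block, the libraries of low Cx3cr1 left out, each library left out in turn, and a correction for GC content and length, which used smoothing splines in place of the planned loess. Promoters and miRNAs are RefSeq sequences (GRCm38.p6), and 3′ UTRs are GENCODE M21 transcripts. The labels do not name the animals behind the replicates, so each p-value reflects sample-to-sample spread, which may be technical.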

Additional observations from a re-analysis of the deposited data

Results flagged for a closer look

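For 12 member values the effect of genotype (Cre+ over Cre-, log2) differed between states by a test of the difference itself (edgeR interaction term, adjusted over all genes). Between demyelination and naive microglia the effect was more positive in demyelination for Cst7 by 3.094 (adjusted p = 1.13e-05), Ctsd by 1.166 (5.97e-06), Ctsb by 1.024 (6.61e-05), Ctsz by 0.465 (0.0411), Ctss by 0.43 (0.0438) and Ctsa by 0.382 (0.0492). Between start-tamoxifen remyelination and demyelination the difference was -1.92 for Cst7 (0.0066), -0.815 for Ctsl (0.0202), -0.666 for Ctsz (0.0193) and -0.558 for Ctsd (0.0197). Between peak and start tamoxifen it was 0.681 for Ctsl (0.0445) and -0.571 for Ctsd (0.0132). The first 2 sets use the same demyelination libraries, and the last 2 the same start-tamoxifen libraries, so they are not independent of each other.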

How the results depend on the processing

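Of 112 member values, 82 were called, and 64 of these kept their call and direction in every alternative tried. No called value changed sign. The changes of sign concerned values near 0, and 1 of them passed the threshold, Ctsc in start-tamoxifen remyelination against naive in Cre+, at 0.367 after the correction for GC content and length. For that comparison Ctsc was 0.02 with RLE size factors, 0.076 without the 3 Cre+ libraries of low Cx3cr1, 0.033 with the compared groups alone, 0.015 with DESeq2 and -0.113 to 0.054 with single libraries left out. Between naive genotypes, Ctsz was -0.007 with RLE and with DESeq2, -0.099 without the low-Cx3cr1 libraries and -0.073 to 0.076 with single libraries left out. Cst3 there was -0.013 with RLE and with DESeq2, -0.001 without a filter, -0.023 without the low-Cx3cr1 libraries and -0.086 to 0.085 with single libraries left out. Between demyelination genotypes, Ctss was 0.035 with RLE, 0.036 with DESeq2, 0.049 without a filter, 0.067 without the low-Cx3cr1 libraries and -0.066 to 0.042 with single libraries left out. With single libraries left out, Cst3 there was -0.001 to 0.121, Ctsh there -0.031 to 0.075 and Ctsh at the peak -0.159 to 0.034. Cst3 in start-tamoxifen remyelination against demyelination in Cre+ was 0.071 after the GC and length correction.

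Counts of called members moved as follows. Without the 3 low-Cx3cr1 libraries, 0 members (81 genes of all) were called between demyelination genotypes, and 0 for the difference between start tamoxifen and demyelination. At the peak 5 members were called without a filter and 5 after the GC and length correction. For the difference between peak and start 1 was called with RLE, and for that between demyelination and naive 3 with the compared groups alone. Between start-tamoxifen genotypes, 81 genes of all were called without a filter, 81 with DESeq2 and 40 with the compared groups alone. With single libraries left out, members called ranged 6 to 7 in naive, 2 to 4 in demyelination, 0 to 0 at the start and 3 to 5 at the peak, and 3 to 5, 1 to 4 and 1 to 2 for the differences between demyelination and naive, start and demyelination, and peak and start. All genes called then ranged 3713 to 4726 in naive, 422 to 2165 in demyelination, 1 to 7 at the start and 853 to 2117 at the peak. The causes were not tested. Same-numbered Cre+ and Cre- samples had correlations of deviations of -0.416 to 0.262. In peak-tamoxifen remyelination all same-number values (0.254, 0.061 and 0.182) exceeded the highest value with another number (-0.109, -0.011 and 0.061). In the other states only naive replicate 3 did so (0.262 against 0.096). With 3 libraries per group these values cannot decide whether the numbers pair samples. With the replicate block, Ctsa (0.374, adjusted p = 0.0541) and Ctss (0.437, adjusted p = 0.0621) missed the threshold for the difference between demyelination and naive, and no other member call changed. Remyelination libraries were shallower than the others.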
